A study of Mus musculus with 6 samples.

Results

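The acute phase proteins that hepatocytes secrete into plasma were followed in mouse livers on 2 diets. The group held 10 genes, Saa1, Saa2, Saa3, Saa4, Orm1, Orm2, Hp, Hpx, Lcn2 and Apcs, out of 12393 genes measured on both array designs. Its members were chosen by name, as every probe set that the platform annotation gives to exactly 1 of these symbols, which found 12 probe sets among 22626. Saa1 and Saa4 had 2 probe sets each, the others 1 each, and the larger design added none. All 12 lay above the floor of 155.3 signal units on all 6 arrays, so no member was lost to the filter on low values and no difference is a bound.

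Each array held liver RNA from mice of the inbred strain C57BL/6J, which becomes obese on fatty food, kept on a high-fat diet or on the control diet for 2, 4 or 10 weeks. There was 1 array per diet and week, so 3 high-fat and 3 control arrays. The age and sex of the mice, the composition of the diets and whether an array held 1 animal or a pool are not given in the labels. The arrays of week 4 were of a larger design than those of weeks 2 and 10.

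The acute phase response is the liver's change in secreted proteins after infection, injury or inflammation. Interleukin-6, acting through STAT3, and interleukin-1 and tumour necrosis factor, acting through NF-kappaB and C/EBP factors, switch hepatocytes to making more of the positive acute phase proteins and less of albumin, transthyretin and other negative ones. Serum amyloid A proteins are apolipoproteins that ride on high-density lipoprotein, orosomucoids are plasma carriers of small lipophilic molecules, haptoglobin and hemopexin bind free haemoglobin and haem, lipocalin 2 binds bacterial siderophores, and Apcs encodes serum amyloid P, the main acute phase pentraxin of the mouse.

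The serum amyloid A genes neighbour each other on chromosome 7 in the order Saa3, Saa4, Saa1, Saa2, and Orm1 and Orm2 lie on chromosome 4 with Orm3 between them. Saa1 and Saa2 are close copies, and their probe sets could not be assigned cleanly. The annotation gives the symbol Saa1 to the probe set 1419075_s_at, but the transcript record listed beside it belongs to Saa2 in the RefSeq gene table of GRCm38.p6, and the same record stands behind the Saa2 probe set 1449326_x_at. RefSeq also lists each of the 2 symbols as a synonym of the other. The Saa1 probe set 1450788_at was the only one of the 3 whose transcript record is that of Saa1. Values of Saa1 and Saa2 are therefore uncertain as to which copy they measure.

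The likeness of the 2 copies extends to their promoters. The table of RefSeq promoters for GRCm38.p6 matched 8 of the 10 members, with Orm1 and Hp not matched. The start sites it uses for Saa1 and Saa3 lie inside the annotated genes. The 250 bases before them overlap Saa1 (chr7:46740497-46743181) in part and lie wholly within Saa3 (chr7:46711998-46719615). Over the 250 bases before the start site, Saa1 and Saa2 were identical at 238 of 251 aligned positions, which is 94.8%. All other pairs of member promoters had 45.7% to 54.5% identity. The sequences below show this pair, then Orm2, whose weekly differences had the same signs as those of Saa2, then Hpx, which was lower with high-fat feeding throughout. They read 5′ to 3′ toward the start site and lie at chr7:46742981-46743230 (minus strand), chr7:46751583-46751832 (plus strand), chr4:63362199-63362448 (plus strand) and chr7:105600117-105600366 (minus strand). Capitals mark matches to the motifs described after them.
Saa1: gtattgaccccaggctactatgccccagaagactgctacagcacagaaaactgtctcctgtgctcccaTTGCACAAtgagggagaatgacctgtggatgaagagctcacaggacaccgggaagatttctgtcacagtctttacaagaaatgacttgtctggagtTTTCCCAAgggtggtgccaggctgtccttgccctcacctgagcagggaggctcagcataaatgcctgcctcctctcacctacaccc
Saa2: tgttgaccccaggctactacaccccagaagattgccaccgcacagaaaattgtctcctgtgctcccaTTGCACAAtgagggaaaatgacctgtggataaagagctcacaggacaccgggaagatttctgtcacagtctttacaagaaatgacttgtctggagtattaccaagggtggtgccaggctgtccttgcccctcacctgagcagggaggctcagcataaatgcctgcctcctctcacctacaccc
Orm2: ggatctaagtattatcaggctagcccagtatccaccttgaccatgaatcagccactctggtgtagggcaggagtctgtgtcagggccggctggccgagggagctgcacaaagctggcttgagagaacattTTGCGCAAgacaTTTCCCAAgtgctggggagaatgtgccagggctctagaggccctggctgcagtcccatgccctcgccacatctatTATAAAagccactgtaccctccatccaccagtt
Hpx: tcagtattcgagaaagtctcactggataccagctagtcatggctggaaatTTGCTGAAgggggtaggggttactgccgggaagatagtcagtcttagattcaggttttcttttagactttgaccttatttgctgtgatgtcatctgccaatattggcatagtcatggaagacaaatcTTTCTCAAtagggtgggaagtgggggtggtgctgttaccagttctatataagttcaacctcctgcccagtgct

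The motifs were searched on both strands of the same windows. The C/EBP motif TTNNGNAA was held by 7 of the 8 member promoters (all but Apcs) and by 36.8% of the 32851 promoters in the table. Saa1 and Saa2 shared the match TTGCACAA, and Saa1 held a further match, TTTCCCAA, at bases -86 to -79, where the Saa2 window had none. The STAT3 motif TTCNNNGAA was held by Apcs alone of the 8, against 7.02% of all promoters, and the TATA box TATAAA by Orm2 alone, against 12.4%. The HNF1 core GTTAAT was in none of the 8 and in 6.43% of all, and the NF-kappaB consensus in none of the 8 and in 7.25% of all. No matches of different motifs overlapped. A match is a description of these letters, and the arrays do not measure binding.

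No acute phase protein passed the test for diet over the 3 weeks. In limma's test with week as a block, 0 of the 12 probe sets had an adjusted p under 0.05, and their adjusted p ran from 0.993 to 1, while 0.0138% of all 14533 probe sets tested were called. At an unadjusted p under 0.05 the count was also 0 of 12, with 4.03% of all probe sets passing. The median of the 12 mean log2 differences was -0.05, beside -0.03 over all probe sets tested. With 3 arrays per diet the 95% intervals were wide, and together they reached from -0.96 (Hp) to 0.88 (Saa2) on the log2 scale. A miss of the threshold here does not show that a member did not differ.

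At single weeks, where 1 array stands against 1 and nothing can be tested, the members were mostly lower at week 2 and divided at weeks 4 and 10. At week 2, 10 of the 12 probe sets were lower in the high-fat liver, where 54.0% of all probe sets were, and 2 were higher, where 45.0% were. At week 4, 6 were lower and 6 higher, with backgrounds of 45.8% and 35.0%. At week 10, 5 were lower and 7 higher, with backgrounds of 47.8% and 50.5%. In these backgrounds, and in later shares of signs, a probe set below the floor on both arrays of a week counts as neither. No member was below the floor, so the shares are not fully alike. At least 1.5-fold lower were 1 probe set at week 2 (background 10.2%), 3 at week 4 (7.27%) and 1 at week 10 (13.6%). At least 1.5-fold higher were 0 at week 2 (7.38%), 0 at week 4 (4.46%) and 3 at week 10 (14.0%). The medians of the 12 were -0.26, 0.02 and 0.16 on the log2 scale, beside -0.04, 0 and 0.01 over all probe sets tested.

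**Figure D1:**
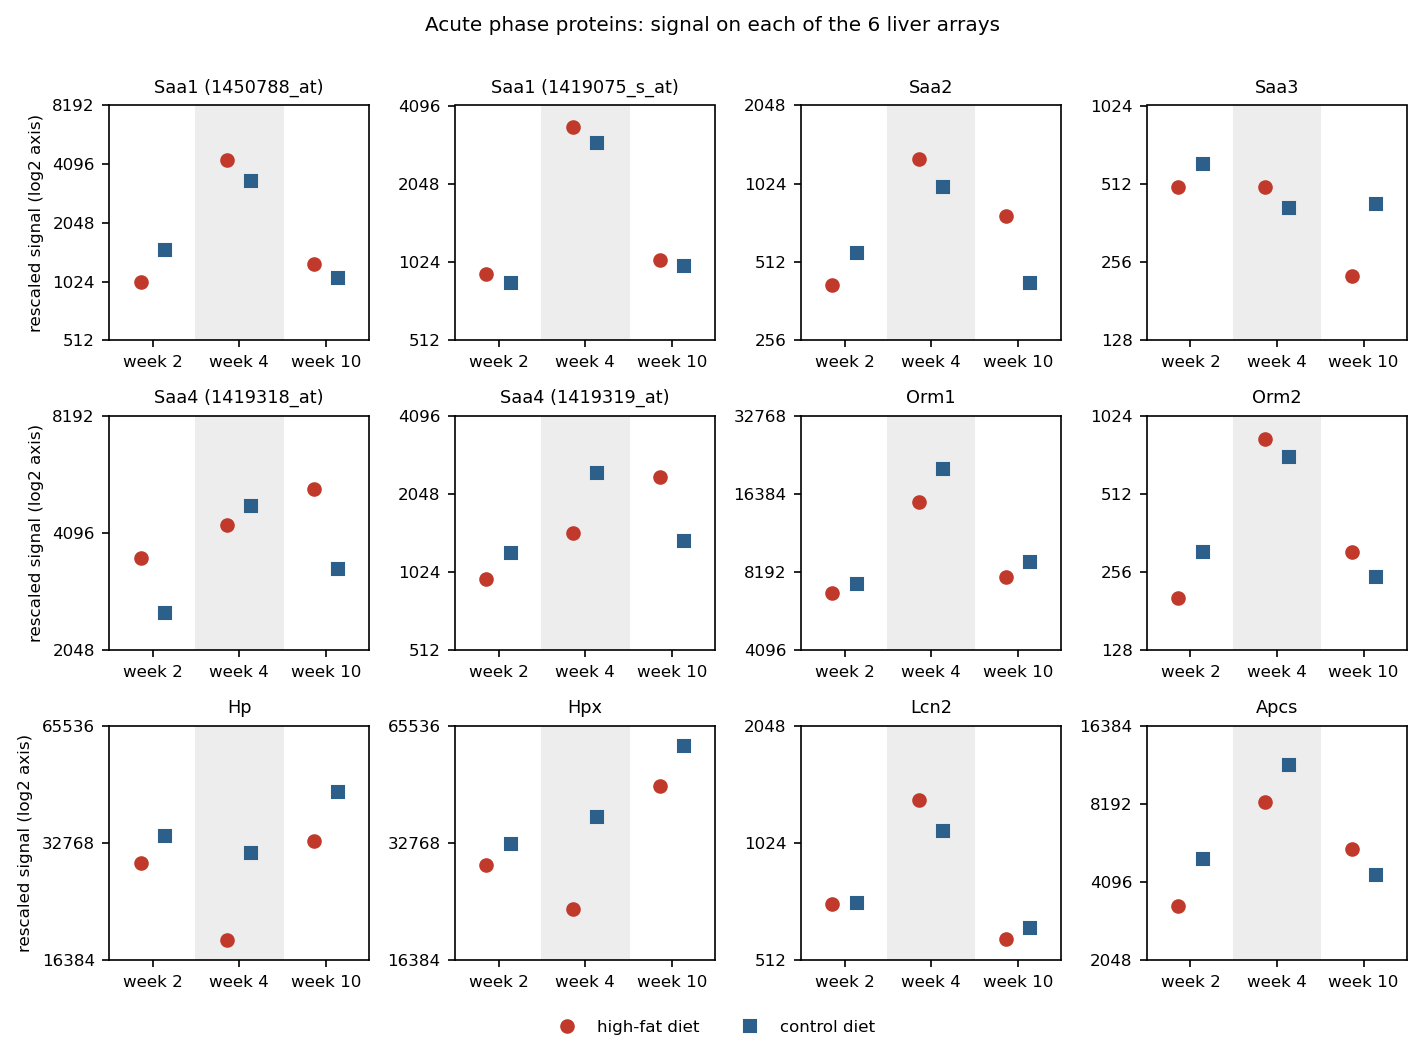
Signal of each of the 12 acute phase protein probe sets (rescaled signal, log2 axis, with its own range in each panel) on the 6 liver arrays, with the high-fat array as a circle left of the control array as a square at weeks 2, 4 and 10. Each point is 1 array, and the shaded week 4 is of another array design. Hp and Hpx have the circle below the square at every week, while in Saa2 it lies below at week 2 (high-fat 418, control 556) and above at week 10 (high-fat 771, control 424).

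The plot of signals by array gives each value, on a scale where every array was brought to a common median, and the group is taken in order of function. Saa1 and Saa2 are the strongly inducible serum amyloid A genes of mouse hepatocytes. Saa2 had signals of 418 in the high-fat and 556 in the control liver at week 2, 1281 (high-fat) and 994 (control) at week 4, and 771 (high-fat) and 424 (control) at week 10. It was thus lower in the high-fat liver of week 2 and higher at the later weeks, with log2 differences of -0.41, 0.37 and 0.86. The last is 1.82-fold and was the largest upward difference of any member at any week. Over the 3 weeks its mean log2 difference was 0.27 (standard error 0.27, limma adjusted p = 0.993). Standard errors and intervals here are limma's, which draw the variance of each probe set toward that of all probe sets tested.

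The Saa1 probe set 1450788_at had 1015 in the high-fat and 1484 in the control liver at week 2, 4317 (high-fat) and 3341 (control) at week 4, and 1257 (high-fat) and 1068 (control) at week 10. It took the same signs as Saa2, with log2 differences of -0.55, 0.37 and 0.23. The other probe set under that symbol, 1419075_s_at, had 923 in the high-fat against 850 in the control liver, then 3389 (high-fat) against 2935 (control), and last 1047 (high-fat) against 986 (control). It was slightly higher with high-fat feeding throughout, by 0.12, 0.21 and 0.09 on the log2 scale, so the 2 probe sets disagreed in sign at week 2. The mean log2 differences were 0.02 and 0.14 (standard errors 0.25 and 0.21), with intervals from -0.54 to 0.58 and from -0.34 to 0.61.

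Saa3 is the serum amyloid A gene that, in the mouse, macrophages and adipocytes also express. It had 497 in the high-fat and 609 in the control liver at week 2, 498 (high-fat) and 415 (control) at week 4, and 227 (high-fat) and 428 (control) at week 10. The high-fat array of week 10 was the lowest of the 6, at 0.53 of its control, a log2 difference of -0.92 after -0.29 and 0.26 at the earlier weeks. That was the largest downward difference of any member at any week, and it was opposite in sign to that of Saa2 on the same pair of arrays. The mean difference was -0.32 (standard error 0.26, limma adjusted p = 0.993). The high-fat signal of Saa3 at week 10 lay near the floor of 155.3, at percentile 43.6 of its array. With the floor at the 60th percentile, the differences of Saa3 were -0.29, 0.26 and -0.28 and their mean was -0.10.

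Markers of Kupffer cells and other macrophages went the other way from Saa3 on the pair of arrays of week 10. All 12 were higher in the high-fat liver of week 10, 8 by 1.5-fold or more, where 13.6% of 8850 genes were. Of these markers 4 were higher and 8 lower at week 2, and 7 were higher and 5 lower at week 4. Their summed signal was 19091 (high-fat) against 21261 (control) at week 2, then 31133 (high-fat) against 31186 (control) at week 4, and 24455 (high-fat) against 14538 (control) at week 10. The Kupffer cell genes Cd5l and Clec4f had log2 differences of 1.22 and 1.12 at week 10, and Mpeg1 had 0.90. Of the adipocyte markers, Adipoq and Lep were below the floor on all 6 arrays, and the 4 measured ones summed to 670 in the high-fat and 718 in the control liver of week 10. In whole liver, fewer cells of a type and less RNA per cell cannot be told apart, and the part of either cell type in the week 10 differences of Saa2, Saa3 and Saa4 was not tested.

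Saa4 encodes the constitutive serum amyloid A, which is made by the resting liver and changes little in the acute phase. Its probe set 1419318_at had 3532 in the high-fat and 2553 in the control liver at week 2, 4296 (high-fat) and 4796 (control) at week 4, and 5322 (high-fat) and 3306 (control) at week 10. The second, 1419319_at, had 964 in the high-fat against 1212 in the control liver, then 1448 (high-fat) against 2460 (control), and last 2380 (high-fat) against 1344 (control). Both were over 1.5-fold higher in the high-fat liver of week 10, with log2 differences of 0.69 and 0.82, and both lower at week 4, by -0.16 and -0.76. At week 2 they had opposite signs, 0.47 and -0.33. Their mean differences were 0.33 and -0.09 (standard errors 0.24 and 0.30, limma adjusted p = 0.993 and 1).

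Apcs had 3321 in the high-fat and 5006 in the control liver at week 2, 8329 (high-fat) and 11503 (control) at week 4, and 5478 (high-fat) and 4344 (control) at week 10. The log2 differences were -0.59, -0.47 and 0.33, so serum amyloid P was the 1 member at least 1.5-fold lower at week 2 and was higher by week 10. The mean was -0.24 with an interval from -0.80 to 0.32.

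The 2 orosomucoids differed in pattern. Orm1 had 6800 in the high-fat and 7404 in the control liver at week 2, 15238 (high-fat) and 20469 (control) at week 4, and 7854 (high-fat) and 8927 (control) at week 10. It was lower with high-fat feeding throughout, with log2 differences of -0.12, -0.43 and -0.18. Orm2 had 204 in the high-fat against 305 in the control liver, then 833 (high-fat) against 708 (control), and last 307 (high-fat) against 246 (control), with differences of -0.58, 0.24 and 0.32. Orm2 shared its signs with Saa2 and with the Saa1 probe set 1450788_at, a sequence of signs that 7.45% of all probe sets had. Its signals of weeks 2 and 10 lay near the floor of 155.3. With the floor at the 60th percentile, the differences of Orm2 were 0, 0.24 and 0. The mean differences were -0.24 for Orm1 and -0.01 for Orm2 (standard errors 0.21 and 0.25). Orm3, the gene between them, was named after its values were seen. At week 2 its probe set read 485 in the high-fat liver and 101, below the floor, in the control liver, which is at least 3.13-fold higher. It was below the floor on both arrays of week 4, and at week 10 it read 364 in the high-fat and 310 in the control liver.

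Lcn2 was nearly level between the diets at weeks 2 and 10. It had 715 in the high-fat and 718 in the control liver at week 2, 1320 (high-fat) and 1101 (control) at week 4, and 582 (high-fat) and 621 (control) at week 10. The log2 differences were -0.01, 0.26 and -0.09, and the mean was 0.05 with an interval from -0.43 to 0.54. Lcn2 is also a granule protein of neutrophils, and the summed signal of 9 neutrophil markers was 2110 in the high-fat and 2375 in the control liver at week 2, 2036 (high-fat) and 1336 (control) at week 4, and 3323 (high-fat) and 2482 (control) at week 10. Among them Camp was below the floor on all 6 arrays. The 8 tested ones had median log2 differences of -0.05, 0.07 and 0.43, with 3, 4 and 6 higher and 5, 0 and 2 lower in the high-fat liver at weeks 2, 4 and 10. S100a9 had 0.44, 0.48 and 0.55, while Mpo had -0.48, 0 and -0.56 with week 4 below the floor, and the part of neutrophils in the Lcn2 signal was not tested.

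Haptoglobin and hemopexin were lower with high-fat feeding throughout. Hp had 29080 in the high-fat and 34145 in the control liver at week 2, 18479 (high-fat) and 30866 (control) at week 4, and 33136 (high-fat) and 44267 (control) at week 10. Hpx had 28826 in the high-fat against 32634 in the control liver, then 22163 (high-fat) against 38254 (control), and last 45731 (high-fat) against 58101 (control). Both were over 1.5-fold lower at week 4. The log2 differences were -0.23, -0.74 and -0.42 for Hp and -0.18, -0.79 and -0.35 for Hpx. Their means were -0.46 for Hp (standard error 0.22, interval from -0.96 to 0.03) and -0.44 for Hpx (standard error 0.23, interval from -0.95 to 0.07), with a limma adjusted p of 0.993 for each. With Orm1, 3 of the 12 probe sets were lower at every week, where 11.7% of all were, and 1 (Saa1 1419075_s_at) was higher at every week, where 8.24% were.

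**Figure D2:**
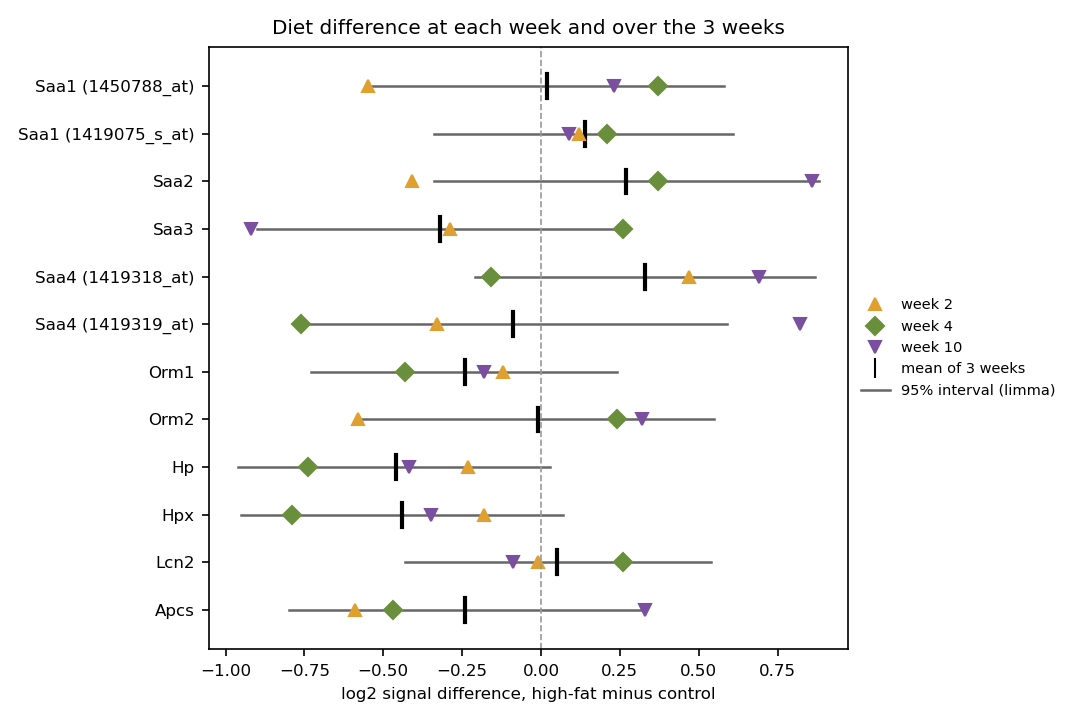
Log2 signal difference, high-fat minus control, of each acute phase protein probe set (rows) at weeks 2, 4 and 10 (triangle, diamond and inverted triangle, 1 array per diet each), with the mean of the 3 weeks as a black bar and limma's 95% interval as a grey line. Every interval includes 0, those of Hp (-0.96 to 0.03) and Hpx (-0.95 to 0.07) only just, and the widest spread of weeks is that of Saa4 (1419319_at), from -0.76 to 0.82.

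Hp, Hpx and Orm1 are bright, and bright probe sets as a whole were lower in high-fat livers. These 3 are among the brightest 5% of those tested, and the other 9 are not. Of the 727 brightest probe sets, 61.1%, 94.6% and 64.1% were lower in the high-fat liver at weeks 2, 4 and 10, and 35.6% were lower at all 3 weeks. In the brightest 182, which hold Hp and Hpx, the median log2 differences were -0.11, -0.69 and -0.27 at weeks 2, 4 and 10. When each week's differences were corrected for brightness by loess, Hp had -0.12, -0.12 and -0.15, Hpx had -0.07, -0.11 and -0.04, and Orm1 had -0.11, 0.10 and -0.09. The correction is fitted through these same bright probe sets, so it also takes out any difference that they share. The later differences of Saa2 (0.83 at week 10), Saa3 (-0.97) and Saa4 (0.73 and 0.82) were nearly the same after the correction.

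**Figure D3:**
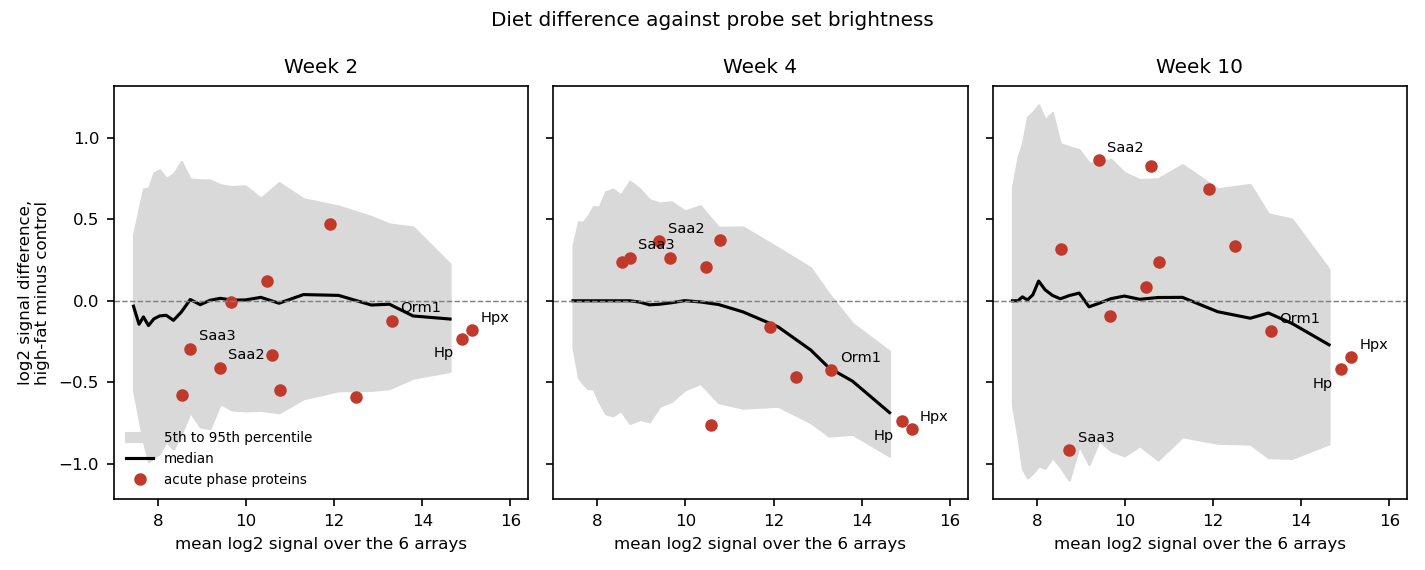
Log2 signal difference between the diets (high-fat minus control) against mean log2 signal over the 6 arrays, for weeks 2, 4 and 10. The line and grey band are the median and the 5th to 95th percentile of all 14533 probe sets tested in 23 bins of brightness, and the 12 red points are the acute phase protein probe sets. At week 4 the median is -0.69 in the brightest bin, and Hp (-0.74) and Hpx (-0.79) lie beside it.

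Hepatocyte markers had the same direction as Hp and Hpx. All 7 measured ones were above the floor on all arrays and among the brightest 5%. Of them 6, 7 and 7 were lower in the high-fat liver at weeks 2, 4 and 10, beside 61.1%, 94.6% and 64.1% of the 727 brightest. Albumin had log2 differences of -0.25, -1.03 and -0.51. The summed signal of the markers was 240319 in the high-fat and 280136 in the control liver at week 2, 168279 (high-fat) and 316676 (control) at week 4, and 355302 (high-fat) and 500740 (control) at week 10. Of the control genes for RNA quality, pyruvate carboxylase differed most between the diets. For it the 3′ over 5′ signal ratio was 9.64 in the high-fat and 3.82 in the control liver at week 2, 7.78 (high-fat) and 4.26 (control) at week 4, and 2.39 (high-fat) and 4.01 (control) at week 10. The same ratio for Actb was 1.61 (high-fat) and 1.2 (control), then 2.35 (high-fat) and 2.15 (control), and last 1.17 (high-fat) and 1.73 (control). For Gapdh it was 1.01 (high-fat) and 0.783 (control), then 0.814 (high-fat) and 0.820 (control), and last 0.832 (high-fat) and 0.906 (control). Of the remaining cell types, endothelial markers (5 tested) had medians of -0.31, -0.24 and 0.42 and stellate cell markers (5 tested) 0.10, 0.12 and 0.02. The 3 tested markers of pancreatic acinar cells had medians of -0.57, -0.42 and 1.18. All 3 were lower in the high-fat liver of week 2. All 3 were at least 1.5-fold higher in that of week 10, where 13.6% of 8850 genes were. Cela2a and Cpa1 were below the floor on all arrays. No cholangiocyte marker passed the filter, Krt7 and Epcam being below the floor throughout. The part of other cell types and of RNA quality in the differences of the members was not tested.

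Levels on the week 4 arrays stood apart for some members on both diets. Saa1, Saa2, Orm1, Orm2, Lcn2 and Apcs had their highest signals of all on the 2 arrays of week 4, while Hp, Hpx, Saa3 and Saa4 did not. Ranked among the shared probe sets of the same array, Orm2 stood at percentile 45.2 (high-fat) and 54.2 (control) at week 2, then 78.5 (high-fat) and 76.2 (control) at week 4, and 52.6 (high-fat) and 46.6 (control) at week 10. Saa2 stood at percentile 64.2 (high-fat) and 70.3 (control), then 84.1 (high-fat) and 81.1 (control), and last 77.0 (high-fat) and 62.5 (control). Week 4 was measured on another array design, so week and design cannot be told apart.

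Between weeks 2 and 10, which share a design, more members differed on the high-fat than on the control diet, a description with no test. On the high-fat diet 6 probe sets were at least 1.5-fold higher at week 10 (Saa2, both of Saa4, Orm2, Hpx and Apcs), where 20.3% of all probe sets were, and Saa3 was at least 1.5-fold lower, where 14.6% were. Orm2 (1.5-fold) and Saa4 1419318_at (1.51-fold) lay at that limit. The Orm2 signals, 204 at week 2 and 307 at week 10, were also near the floor. On the control diet Hpx alone was at least 1.5-fold higher, where 12.2% of all probe sets were, and none was that much lower, where 10.4% were. Week 10 minus week 2 was 0.88 on the high-fat and -0.39 on the control diet for Saa2 on the log2 scale. Apcs had 0.72 (high-fat) and -0.20 (control), Saa4 1419319_at had 1.30 (high-fat) and 0.15 (control), and Saa3 had -1.13 (high-fat) and -0.51 (control). Hpx was higher at week 10 on either diet, by 0.67 (high-fat) and 0.83 (control). RNA quality also differed between these arrays. The 3′ over 5′ ratio of pyruvate carboxylase went from 9.64 to 2.39 (high-fat) and from 3.82 to 4.01 (control). That of Actb went from 1.61 to 1.17 (high-fat) and from 1.2 to 1.73 (control). The part of RNA quality and of brightness in these differences was not tested.

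The other genes of the acute phase response were taken from lists, by the brightest probe set of each gene. Of 24 other positive acute phase proteins 21 were measured, and all passed the filter. At least 1.5-fold higher with high-fat feeding were 2, 1 and 1 of them at weeks 2, 4 and 10, and at least 1.5-fold lower were 1, 8 and 5, where 6.79%, 3.84% and 13.6% of 8850 genes were higher and 8.95%, 6.67% and 12.7% lower to that degree. Their median log2 differences were -0.03, -0.44 and -0.29, and 0.03, -0.03 and -0.08 after the brightness correction, 14 of the 21 being among the brightest 5%. The metallothioneins, metal-binding proteins that cytokines and glucocorticoids induce, had 0.47, -1.07 and -1.92 (Mt1) and 0.92, -0.78 and -1.34 (Mt2). Fgg, a fibrinogen chain, had -0.09, -0.93 and -0.29, and Hamp, the iron hormone hepcidin, 0.14, -0.79 and -0.51. Mbl2, a mannose-binding lectin, and Itih3, an inter-alpha-trypsin inhibitor chain, had means of -0.43 and -0.33. No gene of this list was called by limma.

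Negative acute phase proteins, which the response lowers, were mostly lower in high-fat livers too. Of the 10 measured of 13, 7 were lower at week 2, 10 at week 4 (8 at least 1.5-fold) and 9 at week 10. Of all probe sets tested, 54.0%, 45.8% and 47.8% were lower at these weeks, and of the 727 brightest 61.1%, 94.6% and 64.1%. At least 1.5-fold lower at week 4 were 32.9% of these 727 and 6.67% of 8850 genes. The medians of the 10 were -0.14, -0.82 and -0.41, and -0.02, -0.11 and -0.11 after the brightness correction. Mean differences were -0.60 for Apoa2 and -0.51 for Apoa1, apolipoproteins of high-density lipoprotein, -0.53 for transthyretin (Ttr), -0.39 for Fetub and -0.38 for the retinol carrier Rbp4, and 0 of the 10 were called by limma. Of these 10 genes, 9 are among the brightest 5%, and 4 are also counted as hepatocyte markers.

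The cytokine pathways that drive the response had list medians near 0 in most weeks. Of the interleukin-6 family list 15 of 17 measured genes were tested, with medians of -0.04, 0 and -0.18, and Il6 itself was below the floor on all 6 arrays. At least 1.5-fold higher were 1, 0 and 1 of the 15 at weeks 2, 4 and 10, and lower 0, 1 and 5. Over all 8850 genes 6.79%, 3.84% and 13.6% were higher and 8.95%, 6.67% and 12.7% lower to that degree. The count of 5 lower at week 10 stood above its share, which was not tested. Lifr, a receptor chain, had -0.05, -0.46 and -1.38. Bcl3 had -0.05 and 0.25 at weeks 2 and 4, and -1.85 at week 10 as a bound, being below the floor in the high-fat liver. Pim1, a STAT3 target, had 1.12 and 0.29 at weeks 2 and 4 and was below the floor on both arrays of week 10. Cebpd, a C/EBP factor of the acute phase, had -0.22, 0.10 and -0.71, Pias3 had a mean of -0.50, its week 4 value being below the floor in the high-fat liver, and Socs1, a feedback inhibitor, had one of -0.34 with values below the floor. In the interleukin-1, TNF and NF-kappaB list 14 of 19 measured genes were tested, with medians of -0.03, 0.02 and -0.02. Beside the same shares, 1, 0 and 0 of them were at least 1.5-fold higher and 1 was lower at each week. Il1b had -0.36, -0.79 and 0.11, the receptor Il1r1 0.84, 0.13 and -1.63 (the last a bound, below the floor in the high-fat liver), and its partner Il1rap 0.01, -0.58 and -0.44. Nfkbia, an inhibitor of NF-kappaB, had a mean of -0.21, Nfkbib -0.24 and Tnfrsf1b -0.18. None of these genes was called.

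Receptors and clearance proteins were mixed as well, with medians of -0.04, -0.27 and 0.15 over 13 tested genes. Of these 0, 1 and 3 were at least 1.5-fold higher and 3, 1 and 1 lower. The shares over 8850 genes were 6.79%, 3.84% and 13.6% higher and 8.95%, 6.67% and 12.7% lower. Cd163, the macrophage receptor that takes up haptoglobin bound to haemoglobin, had 0.01, 0.91 and 0.15, and Fpr2, a formyl peptide receptor that serum amyloid A can engage, had -0.34, -0.91 and -0.01. Fcgr2b had -0.88, -0.53 and -0.28, Cd36, a scavenger receptor, a mean of 0.27, Tlr4 -0.65, -0.27 and 1.28 with values below the floor, and Slc22a17, described as a lipocalin 2 receptor, a mean of -0.19 with week 4 below the floor. The 10 hepatocyte transcription factors had medians of 0.09, 0.06 and -0.26. Beside the same shares, 1, 1 and 0 of them were at least 1.5-fold higher and 0, 0 and 2 lower. Among them Cebpa, which maintains the hepatocyte state, was higher with high-fat feeding throughout (0.64, 0.14 and 0.58), as was Foxa2 (0.10, 0.50 and 0.39). Foxa1 had 0.28, 1.04 and -0.59, Nr3c1, the glucocorticoid receptor, a mean of 0.24, and Prox1 and the bile acid receptor Nr1h4 means of -0.26 and -0.21. No gene of either list was called by limma.

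**Figure D4:**
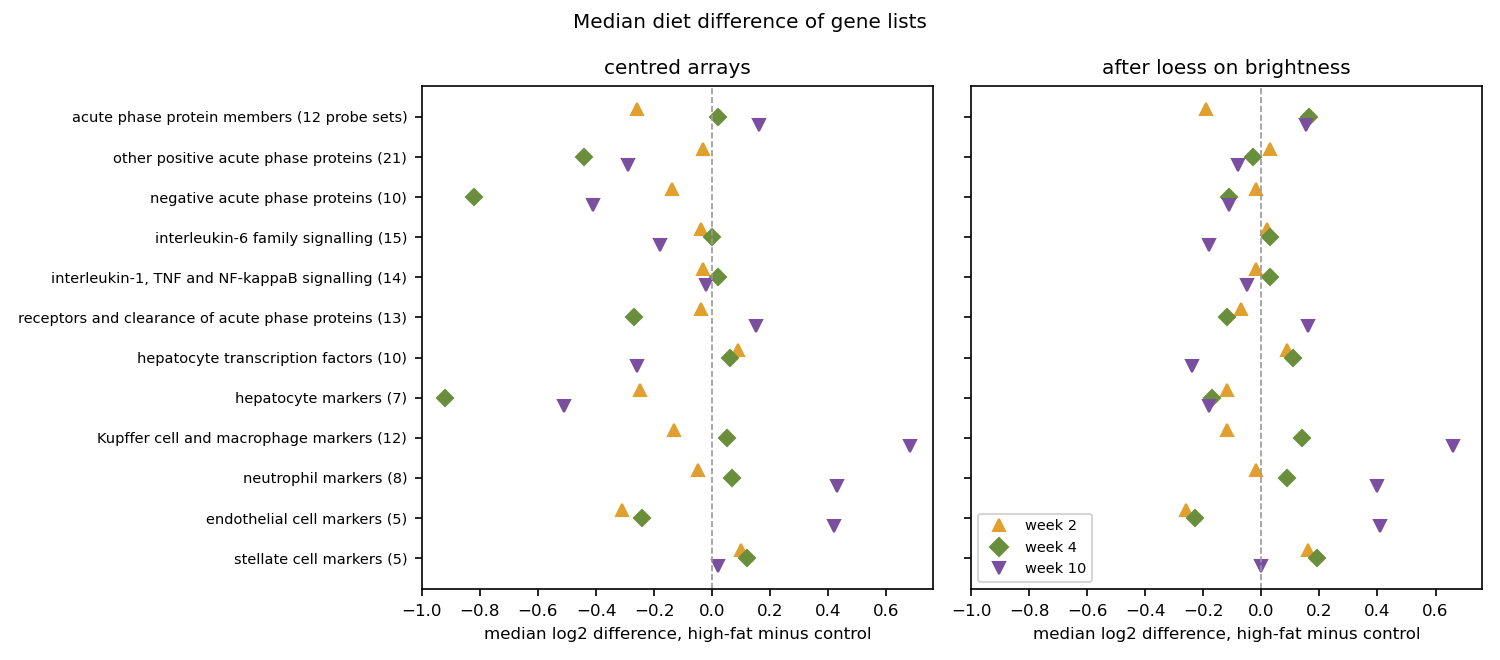
Median log2 difference, high-fat minus control, of the 12 acute phase protein probe sets and of gene lists with at least 5 tested genes (number in brackets), at weeks 2, 4 and 10, for centred arrays on the left and after a loess correction for brightness on the right. On the left, hepatocyte markers (-0.92) and negative acute phase proteins (-0.82) have the lowest medians at week 4. On the right these are -0.17 and -0.11, while Kupffer cell and macrophage markers at week 10 have 0.68 on the left and 0.66 on the right.

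Among members above the floor on all arrays, Saa2 had the widest range of weekly differences on the brightest probe set of each gene, 1.27 on the log2 scale. The 5 genes outside the group whose 3 differences lay nearest to it, out of 6029, were Tmem106a (distance 0.12), Plcg2 (0.13), Nans (0.14), Vps4a (0.14) and Ctps2 (0.17). Each was lower in the high-fat liver of week 2 and higher at weeks 4 and 10, as Saa2 was. These shared signs follow from choosing the genes by the same differences, over 3 pairs of arrays that all of them share.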

How the data were processed

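Liver RNA on Affymetrix mouse arrays was measured, 1 array per diet and week. The files hold the authors' deposited intensity of each probe set on a linear scale, scaled per array by the authors as the values show (2% trimmed means of 500.0 to 500.2, and 800.3 on the control array of week 2). How probes were summarized is not stated in the labels or files. The precision is limited by the number of arrays.

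These deposited intensities were converted to log2, and arrays were centred on the median of 9922 shared probe sets that exceeded the floor on all 6. Values under the 40th percentile of all arrays pooled (155.3, or 7.28 on the log2 scale) were set to that floor. The signals printed are these rescaled values before the floor. Control probe sets (64) were left out. The 14533 probe sets above the floor on at least 3 arrays were fitted in limma 3.58.1 (R 4.3.3) with week as a block, and p-values were adjusted by Benjamini-Hochberg over all of them. The test sets each mean difference against its spread between the 3 weeks, drawn by limma toward the spread of all probe sets tested. That spread may be technical in part. Gene symbols are those of the platform annotation, matched to RefSeq by gene identifier for 20351 of 20380 probe sets with 1 symbol (691 had several, 1555 none). Lists were read at the brightest probe set of each gene.

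The members, lists and tests were chosen with earlier results of these data known. All member probe sets are given, plus up to 6 genes of each list by the size of the mean difference, the 5 nearest patterns to 1 member, and marker genes beside the results they bear on. The fit was tested on simulated data with changes of 1, 2 and 4 on the log2 scale. It called 2.99%, 65.7% and 86.4% of them, with 4 false calls, so it missed most changes of 1. Tried as alternatives were quantile normalization, the values as deposited, other floors, no filter, the brightest probe set per gene, shared probe sets left out, no week block, another variance model, leaving out each week and loess on brightness. Centring on the brightest 5% was added after the data were seen. Figures were drawn with matplotlib 3.10.9.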

Additional observations from a re-analysis of the deposited data

Results flagged for a closer look

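The Saa4 probe set 1419319_at was lower on the high-fat array at week 4 (-0.76 on the log2 scale) and higher at week 10 (0.82), both past 1.5-fold, so that the diet difference of week 10 exceeded that of week 4 by 1.59. With 1 array per diet and week this change of direction was not tested. The same combination, at least 1.5-fold lower at week 4 and higher at week 10, was seen in 165 of 14533 probe sets, or 1.14%. The other Saa4 probe set, 1419318_at, had -0.16 and 0.69. The 2 weeks were measured on different array designs, and the cause was not tested.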

How the results depend on the processing

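In all 14 alternatives 0 of the member probe sets was called by limma, the lowest adjusted p being 0.521, and 8 to 12 being tested. At an unadjusted p under 0.05 there were 0 in the main setting, 1 with the floor at the 60th percentile, 1 with no filter, 2 without week 10 and 0 in the other alternatives. The number of probe sets called over the whole table, 2 in the main setting, was 10 with the values as deposited, 1 with eBayes trend and robust, 1 centred on the brightest 5% (a setting chosen after seeing the data), and 0 with quantile normalization, with floors at the 20th and 60th percentile, with no filter, with shared probe sets left out, with no week block and with loess on brightness. Leaving out 1 week gave 0 to 9 (9 without week 2, 0 without week 4 and 6 without week 10). Those settings with 0 called had 97 to 835 probe sets at an unadjusted p under 0.05. Of 161 mean differences of members under the alternatives 13 changed sign. They were, for Saa1 1450788_at, -0.17 as deposited, -0.16 without week 4 and -0.09 without week 10 (0.30 without week 2). For Saa1 1419075_s_at the value was -0.05 as deposited, and for Saa2 -0.02 without week 10 (0.61 without week 2). For Saa4 1419319_at they were 0.03 without week 2, 0.25 without week 4 and 0.06 centred on the brightest 5% (-0.55 without week 10). For Orm2 they were 0.28 without week 2, 0.01 with loess and 0.14 centred on the brightest 5%, and for Lcn2 -0.13 as deposited and -0.05 without week 4 (0.13 without week 10). The other 6 probe sets kept their sign, but Hp, Hpx and Orm1 came to -0.10, -0.01 and -0.01 with quantile normalization. Leaving out 1 week gave -0.60 (without week 4) to -0.02 (without week 10) for Saa3, -0.53 (without week 10) to -0.07 (without week 2) for Apcs, and 0.15 (without week 10) to 0.58 (without week 4) for Saa4 1419318_at. Counts of members at least 1.5-fold different moved too. Lower at week 2 were 10 as deposited, where the median of all probe sets was -0.67, and 2 centred on the brightest 5%. The deposited values of week 2 had trimmed means of 500.2 on the high-fat and 800.3 on the control array. Lower at week 4 were 1 with quantile normalization, 1 with loess and 0 centred on the brightest 5%, which gave 5 higher. Lower at week 10 were 0 at the 60th percentile floor, the high-fat value of Saa3 being below it. Beyond these constructions the cause was not tested.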
